A study of Mus musculus with 8 samples.

Results

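Hair keratins and keratin-associated proteins are the structural proteins of the hair follicle, and their genes were followed here in mouse skin given saline, bleomycin or celastrol. Members were the rows of the deposited table whose symbol begins with Krtap and a number, or is a keratin numbered Krt25 to Krt28, Krt31 to Krt39, Krt71 to Krt75 or Krt81 to Krt87. Of 81 genes that GENCODE release M21 names in this way, 8 had a row among the 24612 rows of the table. These were the keratins Krt25, Krt27, Krt28, Krt32, Krt39, Krt75 and Krt84 and the keratin-associated protein Krtap3-2. The other 73 genes, 16 keratins and 57 keratin-associated proteins, were not analysed here. The name hair shaft covers only some of the 8, since Krt25, Krt27 and Krt28 are keratins of the inner root sheath and Krt75 is best known from the companion layer between the root sheaths.

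RNA was sequenced from skin homogenates of male C57 BL/6 J mice, in 2 libraries labelled PBS, 3 labelled Bleomycin and 3 labelled Celastrol. Treatment began when the mice were 6 weeks old, and the samples are labelled as 21 days. The PBS mice had 0.1 mL of phosphate-buffered saline and the bleomycin mice 0.1 units of bleomycin, a DNA-damaging drug used to model skin fibrosis, both under the skin, while celastrol, a plant triterpenoid, was given daily into the peritoneum at either 1 or 2 mg/kg. Which celastrol dose a library stands for is not in the labels, nor is it stated whether the celastrol mice also had bleomycin or that the libraries of a group come from separate animals, so p-values measure the spread between these libraries.

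Hair follicles cycle through growth (anagen), regression (catagen) and rest (telogen). In anagen the proliferating matrix at the base of the follicle feeds the shaft, whose cells fill with keratin filaments that are cross-linked by the cysteine-rich keratin-associated proteins, and the inner root sheath moulds the shaft as it forms. Large amounts of shaft keratin and keratin-associated protein RNA are a known feature of anagen skin, and in telogen the stem cells of the bulge remain beside a finished, resting hair. The level of these genes is therefore read here as a measure related to the stage of the hair cycle, without a stage being assigned to any library.

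The identity of the only keratin-associated protein in the table is limited by its sequence. Krtap3-2 lies at chr11:99555823-99556853 on the minus strand of mm10, and its neighbours Krtap3-3 (chr11:99550130-99550865) and Krtap3-1 (chr11:99566027-99566630) had no row. In GENCODE release M21 the coding sequences of Krtap3-2 and Krtap3-3 are identical over 297 bases, and the transcripts share an identical run of 333 bases. Reads from this stretch cannot be assigned to either gene, so the Krtap3-2 value is uncertain as to which of them it counts. The first 120 coding bases are shown 5′ to 3′ because they make this limit visible, with capitals at the positions where the 3 genes are not all alike.

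Krtap3-2: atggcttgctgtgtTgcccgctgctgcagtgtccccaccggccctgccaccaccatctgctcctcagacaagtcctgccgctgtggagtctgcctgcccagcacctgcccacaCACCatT
Krtap3-3: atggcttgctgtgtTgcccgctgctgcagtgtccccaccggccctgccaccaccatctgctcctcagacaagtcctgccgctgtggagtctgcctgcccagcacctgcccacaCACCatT
Krtap3-1: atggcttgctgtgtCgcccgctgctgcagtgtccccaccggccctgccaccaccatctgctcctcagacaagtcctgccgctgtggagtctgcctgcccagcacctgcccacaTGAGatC

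Krtap3-1 differs from the others at 6 of these 120 bases and is 83.2% identical to Krtap3-2 over the coding sequence. The keratin members share shorter stretches: the longest identical run was 105 bases between Krt25 and Krt27, 87 between Krt25 and Krt28, and 53 between Krt27 and Krt28. Krt75 shared at most 44 bases with Krt5 and 29 with Krt6a and with Krt6b.

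All 8 members lie on the minus strand of mm10, with Krt25 (chr11:99315516-99322951), Krt27 (chr11:99345565-99351104), Krt28 (chr11:99364872-99374903), Krt39 (chr11:99514114-99521338) and Krt32 (chr11:100080848-100088226) beside Krtap3-2 on chromosome 11. The type II keratins Krt84 (chr15:101525026-101532820) and Krt75 (chr15:101563345-101573904) lie on chromosome 15. RefSeq promoters (GRCm38.p6, from 250 bases before to 50 after the gene start) were available for all 8 members. The TATA box, searched as TATAAA on both strands, was found in 6 of the 8, against 14.2% of 27025 promoters of the same length. On the strand of the gene and starting 1 to 35 bases before the start, it was found in 5 of the 8, namely Krt25, Krt27, Krt28, Krt32 and Krtap3-2, against 2.48% of all promoters. The core of the LEF/TCF motif, searched as CTTTGA on both strands, was in 4 of the 8 (Krt28, Krt32, Krt39 and Krtap3-2), against 16.2% of all. Promoters of Krtap3-2 and Krt75, the members with the highest mean values, and of Krt28, which holds both motifs, are shown with the motifs in capitals (TCAAAG is CTTTGA on the other strand).

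Krtap3-2 promoter (chr11:99556804-99557103, minus strand): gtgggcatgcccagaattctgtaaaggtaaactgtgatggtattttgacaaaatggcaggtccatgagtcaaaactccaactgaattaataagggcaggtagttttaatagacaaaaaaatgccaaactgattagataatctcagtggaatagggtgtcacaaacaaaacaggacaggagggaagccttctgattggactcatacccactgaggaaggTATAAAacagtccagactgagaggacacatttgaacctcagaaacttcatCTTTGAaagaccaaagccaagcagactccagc
Krt75 promoter (chr15:101573855-101574154, minus strand): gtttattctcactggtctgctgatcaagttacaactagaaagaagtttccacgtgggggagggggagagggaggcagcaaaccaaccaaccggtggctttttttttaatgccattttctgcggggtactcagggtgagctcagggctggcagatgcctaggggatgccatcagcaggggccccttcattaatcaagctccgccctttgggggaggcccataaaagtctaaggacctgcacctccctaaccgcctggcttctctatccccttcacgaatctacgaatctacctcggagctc
Krt28 promoter (chr11:99374854-99375153, minus strand): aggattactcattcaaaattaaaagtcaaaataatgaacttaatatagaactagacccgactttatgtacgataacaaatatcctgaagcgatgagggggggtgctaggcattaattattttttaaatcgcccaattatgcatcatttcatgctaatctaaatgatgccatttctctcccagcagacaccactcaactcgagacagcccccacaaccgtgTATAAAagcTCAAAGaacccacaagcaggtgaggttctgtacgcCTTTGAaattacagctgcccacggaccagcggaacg

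Krt75 has neither motif in this window, which says only that these letters are not in it. No binding or chromatin data bear on these motifs here.

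The values are the authors' normalized values on a linear scale, and a read was worth between 0.689 and 1.69 units depending on the library. Estimated depth was 14944419 to 37077597 reads per library and differed within groups, with Celastrol 3 the shallowest and Celastrol 5 the deepest. On the first principal component of all genes tested, with 32.7% of the variance, Celastrol 2 scored 237.5 and the other libraries between -57.3 and -3.63. The keratins of the epidermis marked the tissue as skin: per kilobase of exon, Krt10 averaged 41010 units, Krt5 20362 and Krt14 17156 over the 8 libraries. No row had a highest value under 10.3, so the table holds no gene that stayed below that level in every library.

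Against these, the hair genes were low (see the plot of levels per kilobase). Per kilobase of exon, Krtap3-2 averaged 207 units over the 8 libraries and Krt75 averaged 119 units, and Krtap3-2 was above Krt75 on this scale in every library except Bleomycin 2, by very little in PBS 2. The next mean was that of Krt32, at 14.7 units per kilobase, followed by Krt84 at 9.04 and Krt28 at 4.48. Krt27 at 3.34, Krt39 at 2.99 and Krt25 at 2.55 units per kilobase were the lowest. The 6 lower members each averaged under 50 units over the libraries, and 21 of the 64 member values were listed at 0. Among the values above 0, 41 of 43 were whole numbers of reads to within 0.03. The order of these 6 is not resolved, since Krt84, Krt28, Krt27, Krt39 and Krt25 were each listed at 0 in at least 1 library and all 6 overlapped in range. Krt32 was first by its mean only: per kilobase, Krt84 was above it in Bleomycin 3 (34.2 against 13.7 units) and in Celastrol 5 (15.4 against 9.92), and Krt28 was above it in PBS 2 (18.8 against 6.47). Tchh, which encodes trichohyalin, a protein of the inner root sheath and medulla, averaged 26.6 units per kilobase.

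**Figure D1:**
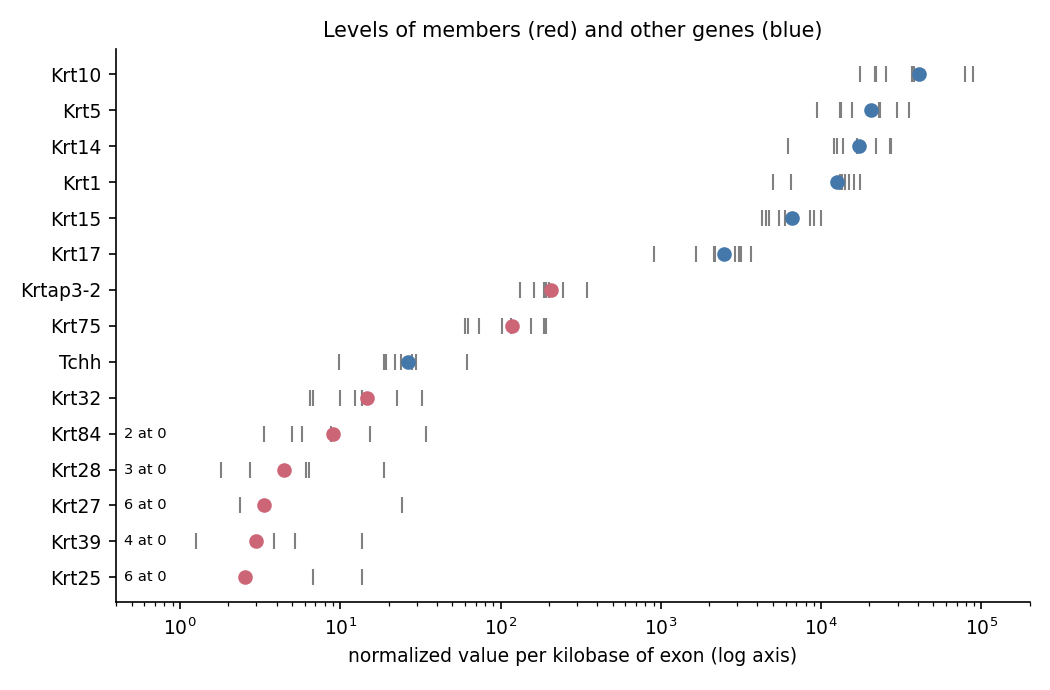
Normalized value per kilobase of exon in the libraries above 0 (ticks, log axis) and as the mean over all 8 libraries (dots) for the 8 members and for keratins of the epidermis and bulge and Tchh as reference. Krtap3-2 and Krt75, with means of 207 and 119, stood above the other 6 members, and Krt5, Krt10 and Krt14 lay far above all members.

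Summed over the 8 members, the values made 37.0 and 42.9 per 1000000 units of the library total in PBS 2 and PBS 3. The sums were 29.8, 24.6 and 18.9 per 1000000 in Bleomycin 2, 3 and 4, and 27.8, 23.2 and 18.8 in Celastrol 2, 3 and 5. Both PBS libraries were therefore above all others, and the bleomycin and celastrol ranges overlapped almost entirely. Krt75 and Krtap3-2 supplied between 77.0% and 95.8% of this sum, so it mostly repeats their values. The other 6 members together came to 61.2 and 43.0 units in PBS 2 and PBS 3, to 39.3, 136 and 36.7 in Bleomycin 2, 3 and 4, and to 117, 50.6 and 89.7 in Celastrol 2, 3 and 5. For these 6 the groups overlapped and both PBS libraries lay inside the range of the bleomycin libraries. In RNA from whole skin, fewer cells of a type and less RNA per cell cannot be told apart.

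**Figure D2:**
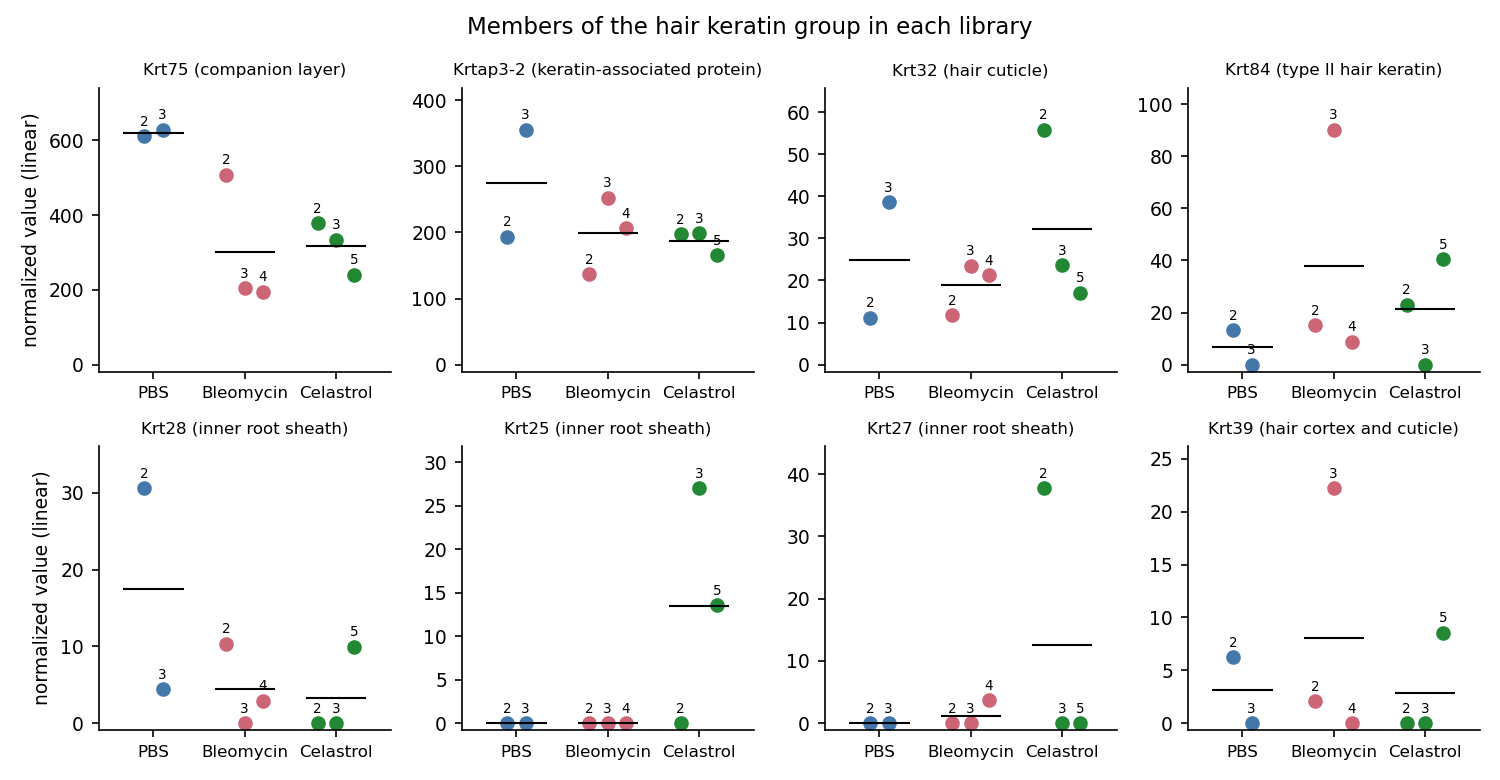
Normalized value (linear axis) of each of the 8 members in each library (points with their replicate number), with the group mean as a line. Krt75 is highest in both PBS libraries, and the 6 members with low values show zeros and overlapping groups.

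Krt75 encodes keratin 75, a type II keratin of the companion layer, the cell sheet that lies against the inner root sheath. Its value was 611 in PBS 2 and 628 in PBS 3. In the bleomycin libraries it was 508 in Bleomycin 2, 204 in Bleomycin 3 and 195 in Bleomycin 4, and in the celastrol libraries it was 378, 334 and 241 in Celastrol 2, 3 and 5. Both PBS libraries were above every treated library, Bleomycin 2 stood closest to them, and the bleomycin range enclosed the celastrol range. Between 156 and 878 reads lay behind each of these values. The gene overlaps the microRNA gene Gm44460, which had no row.

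The comparison of bleomycin with PBS asked whether bleomycin changed the hair genes. The Krt75 mean was 619 ± 12.2 (SD, n = 2) in PBS and 302 ± 178 (SD, n = 3) with bleomycin, a log2 change of -1.18 ± 0.42 (SE) with a 95% interval from -2.11 to -0.25. This did not pass the test, with an adjusted p of 0.465 by limma over all 23185 genes tested (unadjusted p = 0.0176). The call depended on the weight of the libraries: with limma's library weights the change was -1.52 and the adjusted p was 0.0436, which passes. Without Bleomycin 2 it was -1.63 with an adjusted p of 0.0583. The change was smaller without Bleomycin 3 (-0.98) or Bleomycin 4 (-0.94) and did not pass. Without PBS 2 or PBS 3 it was -1.20 or -1.16.

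For celastrol against PBS, the celastrol mean of Krt75 was 317 ± 70.0 (SD, n = 3) and the log2 change was -0.99 ± 0.42 (SE), with a 95% interval from -1.92 to -0.06. The adjusted p was 0.381 by limma (unadjusted p = 0.0397), and it was 0.4004 without Celastrol 2, where the change was -1.12. Celastrol against bleomycin gave 0.20 ± 0.38 (SE), adjusted p = 0.988 by limma, with an interval from -0.64 to 1.03 that holds changes of either sign. Both comparisons with PBS share its 2 libraries, so they are not independent of each other.

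Krtap3-2 encodes a high-sulfur matrix protein of the hair shaft. It stood at 193 in PBS 2 and 355 in PBS 3, at 137, 252 and 206 in Bleomycin 2, 3 and 4, and at 197, 199 and 166 in Celastrol 2, 3 and 5. PBS 3 was the highest library, but PBS 2 lay within the range of both treated groups, and the groups overlapped. The means were 274 ± 115 (SD, n = 2) in PBS, 199 ± 58.0 (SD, n = 3) with bleomycin and 187 ± 18.6 (SD, n = 3) with celastrol. By limma the log2 change was -0.44 ± 0.41 (SE) for bleomycin against PBS (adjusted p = 1, 95% interval -1.35 to 0.47) and -0.49 ± 0.41 for celastrol against PBS (adjusted p = 0.705, interval -1.40 to 0.42). For celastrol against bleomycin it was -0.04 ± 0.37 (adjusted p = 0.997, interval -0.86 to 0.77). The differences from PBS depended on the PBS libraries: without PBS 2 they were -0.88 with bleomycin and -0.92 with celastrol, and without PBS 3 they were -0.0056 and -0.050. Without Bleomycin 2 the bleomycin difference was -0.20. None of these differences exceeded the spread between libraries, and the intervals do not show that the groups were alike.

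Krt32 encodes a type I keratin of the hair cuticle. Its value was 11.1 in PBS 2 and 38.6 in PBS 3, 11.7, 23.5 and 21.3 in Bleomycin 2, 3 and 4, and 55.8, 23.6 and 17.1 in Celastrol 2, 3 and 5. Celastrol 2 was highest and PBS 2 lowest, and all groups overlapped. The log2 changes were -0.20 ± 0.98 (SE) for bleomycin against PBS (adjusted p = 1 by limma), 0.42 ± 0.98 for celastrol against PBS (adjusted p = 0.911) and 0.62 ± 0.88 for celastrol against bleomycin (adjusted p = 0.984). The gene overlaps the antisense gene Gm11571 in GENCODE release M21, which had no row, and whether the counting used strand is not given in the sources used here, so the Krt32 value is uncertain in that respect.

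Krt84 encodes a type II hair keratin that in humans is known from the filiform papillae of the tongue. It was 13.2 in PBS 2 and listed at 0 in PBS 3, 15.1, 90.2 and 8.82 in Bleomycin 2, 3 and 4, and 22.98, 0 and 40.6 in Celastrol 2, 3 and 5. Bleomycin 3 was far above the rest of its group with 69 reads, and 2 libraries of different groups were at 0. By limma the change was 2.69 ± 1.85 (SE) on the log2 scale for bleomycin against PBS (adjusted p = 1), 1.41 ± 1.85 for celastrol against PBS (adjusted p = 0.824) and -1.29 ± 1.66 for celastrol against bleomycin (adjusted p = 0.982). Krt39, a type I keratin known from the human hair shaft, was 6.26 in PBS 2, 2.07 in Bleomycin 2, 22.2 in Bleomycin 3 and 8.54 in Celastrol 5, and was listed at 0 in PBS 3, Bleomycin 4, Celastrol 2 and Celastrol 3. Bleomycin 3 was thus the highest library for both Krt84 and Krt39.

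Krt25, Krt27 and Krt28 encode type I keratins of the inner root sheath, the layers that surround the growing shaft. Krt28 was 30.6 in PBS 2 and 4.41 in PBS 3, 10.3, 0 and 2.94 in Bleomycin 2, 3 and 4, and 0, 0 and 9.96 in Celastrol 2, 3 and 5. PBS 2 was the highest, and the PBS group overlapped the others. The log2 changes of Krt28 were -1.88 ± 1.78 (SE) for bleomycin against PBS (adjusted p = 1 by limma), -2.56 ± 1.78 for celastrol against PBS (adjusted p = 0.627) and -0.68 ± 1.59 for celastrol against bleomycin (adjusted p = 0.992).

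Krt25 was listed at 0 in both PBS libraries, in all 3 bleomycin libraries and in Celastrol 2, and it was 26.99 in Celastrol 3 and 13.5 in Celastrol 5, from 16 and 19 reads. Because of the groups at 0 no fold is given. Krt25 passed the filter on low values only through these 2 celastrol libraries, the group where it is high, so no p is given for it either. Krt27 was 3.67 in Bleomycin 4 and 37.8 in Celastrol 2 and listed at 0 in the other 6 libraries. The celastrol libraries above 0 for Krt25 were not the one above 0 for Krt27, and Krt28 was above 0 only in Celastrol 5 of this group. Krt27 and Krt39 reached 10 in only 1 library each and were not tested.

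Of the 6 members that passed the filter, Krt25 included, limma called 0 for bleomycin against PBS, where 0.677% of all genes tested were called (0.453% higher and 0.224% lower). At an unadjusted p under 0.05 the count was 1, Krt75, against 6.82% of all genes tested (3.2% lower). Krt75 was also the only member whose PBS and bleomycin libraries did not overlap, being lower with bleomycin as were 11.6% of all genes tested. Excluding Krt25, which was at 0 in both groups, 4 of 5 changes were below 0 with a median of -0.44. Over all 6 the median was -0.32, beside -0.0007 over all genes tested. This median depended on single libraries, partly because they decided which members passed the filter. Over 6 members it was -0.0028 without PBS 3 and -0.51 without Bleomycin 3. Without PBS 2 or Bleomycin 2, Krt28 no longer passed, and the median over 5 members was -0.88 or 0. That 0 is the change of Krt25, which was at 0 in both groups. The count and the median are descriptions of the members that passed the filter, not of all 8.

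For celastrol against PBS, 0 of the 6 members were called by limma, beside 1.37% of all genes tested (0.824% higher and 0.543% lower), and Krt75 alone had an unadjusted p under 0.05, as did 12% of all genes (5.91% lower). It was lower in every celastrol library than in either PBS library, a pattern seen for 13.7% of all genes tested. Leaving out Krt25, 2 members lay above 0 and 3 below, with a median of -0.49, and with it the median was -0.03, beside -0.07 over all genes. Leaving out a library also changed which members passed the filter, so the medians over those that passed are not of the same members. Without Bleomycin 2 or PBS 2, Krt28 no longer passed, and the median over 5 members was 0.42 or -0.43. Without Celastrol 3 or Celastrol 5, Krt25 no longer passed, and it was -0.53 or -0.40 over 5 members. Over 6 members it was -0.28 without PBS 3 and -0.29 without Celastrol 2. For celastrol against bleomycin 0 of 6 members were called, with 0 at an unadjusted p under 0.05, beside 0% and 3.87% of all genes tested (2.49% lower). No member separated these groups without overlap, as 4.59% of all genes did as lower and 4.13% as higher. The median was -0.04 over the 5 members other than Krt25 and 0.08 with it, beside -0.04 over all genes, so with all 8 libraries its sign depends on Krt25. With Krt25 it also turned to -0.020 without Bleomycin 4 and to -0.013 without Celastrol 2. It lay between 0.07 and 0.33 without each of PBS 2, PBS 3, Bleomycin 2 and Bleomycin 3. Without Celastrol 3 or Celastrol 5, Krt25 no longer passed the filter, and the median over 5 members was 0.15 or 0.04.

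**Figure D3:**
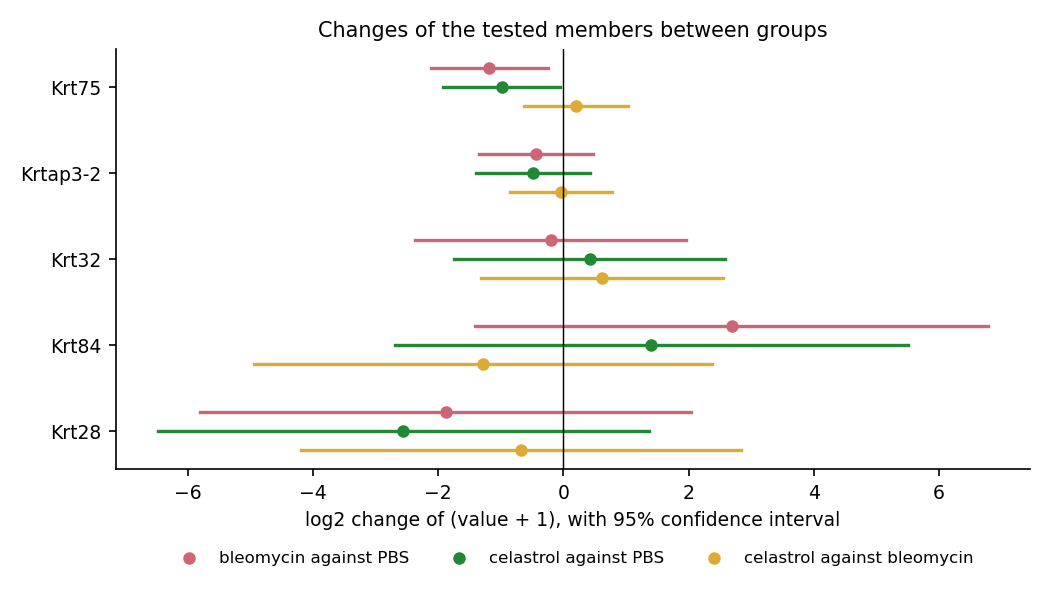
Log2 change of value plus 1 (horizontal axis) for 5 tested members in each of the 3 comparisons, as points with 95% intervals from limma. Krt25 is not drawn, since it was listed at 0 in all PBS and bleomycin libraries. For bleomycin and for celastrol against PBS the Krt75 interval alone of these excludes 0, and no member passed the adjusted threshold.

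The non-keratin genes of shaft and inner root sheath gave no call either. Over all genes tested limma called 0.677%, 1.37% and 0% for bleomycin against PBS, celastrol against PBS and celastrol against bleomycin. At an unadjusted p under 0.05 the shares were 6.82%, 12% and 3.87%. Counts for this list and those that follow stand beside these shares. All 8 of 13 listed genes with a row were tested, with 0 called in each comparison by limma (2, 2 and 0 at an unadjusted p under 0.05 for bleomycin against PBS, celastrol against PBS and celastrol against bleomycin) and medians of 0.07, 0.36 and 0.19. Tchh was 139 and 113 in PBS 2 and PBS 3, 127, 162 and 109 in Bleomycin 2, 3 and 4, and 359, 57.4 and 173 in Celastrol 2, 3 and 5. Celastrol 2, the highest library for Krt27, was also the highest for Tchh and Celastrol 3 was the lowest. Tchhl1, a related gene, was listed at 0 in both PBS libraries. It was 2.75, 79.7 and 23.5 in Bleomycin 2, 3 and 4, and 19.7, 38.8 and 37.0 in Celastrol 2, 3 and 5. The gene passed the filter on low values only through the treated libraries, where it is high, so no p is given for it. It is among the 2 genes counted at an unadjusted p under 0.05 in each comparison with PBS, and that is not taken as support for a rise.

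Regulators of the hair matrix include Foxn1 and Hoxc13, transcription factors needed for shaft keratin expression, and Lef1 and Msx2, which act in matrix and precortex. Of 19 tested, 0 were called in any comparison by limma, with 1, 6 and 1 at an unadjusted p under 0.05. Below 0 were 15, 17 and 16 of the 19, with medians of -0.30, -0.70 and -0.34. Foxn1 was 145 and 44.1 in PBS 2 and PBS 3, 97.1, 70.7 and 51.4 in Bleomycin 2, 3 and 4, and 26.3, 25.3 and 45.5 in Celastrol 2, 3 and 5, a log2 change of -1.34 for celastrol against PBS (adjusted p = 0.526). Its PBS 3 and Celastrol 5 values were nearly the same. Hoxc13 was listed at 0 in Bleomycin 3 and Celastrol 2 and lay between 43.0 and 104 in the other 6 libraries. Lef1 (-0.20 and -0.48) and Msx2 (0.18 and -0.16) had small changes against PBS with bleomycin and celastrol, with adjusted p of at least 0.772.

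Genes of the bulge and hair germ, where the stem cells of the follicle reside, had lower fitted levels than PBS in both treated groups. All 14 tested had a change below 0 in both comparisons with PBS, with medians of -0.88 for bleomycin and -1.21 for celastrol, and -0.41 for celastrol against bleomycin. Of these, limma called 1 lower in each comparison with PBS and 0 in celastrol against bleomycin, with 2, 8 and 0 at an unadjusted p under 0.05. Over all genes tested, 0.224% and 0.543% were called lower against PBS, and 6.82%, 12% and 3.87% had an unadjusted p under 0.05. Summed over the list, the values were 37960 to 53798 in PBS, 21831 to 53854 with bleomycin and 21355 to 27595 with celastrol. On this sum the bleomycin libraries overlapped PBS and the celastrol libraries did not. The largest values of the list were those of Col17a1, Krt15 and Cd34, so the sum mostly repeats these genes. Col17a1 was 23081 and 7153 in PBS 2 and PBS 3 and 9132, 5694 and 7732 in Celastrol 2, 3 and 5. For Col17a1 these groups therefore overlapped. The called gene was Cd34, which encodes a surface protein of bulge cells that is also made by fibroblasts and blood vessels. It was 7056 and 7560 in PBS 2 and PBS 3, 3379, 1821 and 1944 in Bleomycin 2, 3 and 4, and 3090, 3125 and 1881 in Celastrol 2, 3 and 5. Every treated library was below both PBS libraries, as was so for 11.6% of all genes tested with bleomycin and 13.7% with celastrol. As for Krt75, Bleomycin 2 was the highest of its group.

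Cd34 fell by 1.67 ± 0.29 (SE) on the log2 scale with bleomycin (adjusted p = 0.0341 by limma) and by 1.47 ± 0.29 with celastrol (adjusted p = 0.0413), both against PBS. Leaving out some libraries ended these calls. For bleomycin the adjusted p was 0.137 or 0.241 when PBS 2 or PBS 3 was left out, 0.120 or 0.179 when Bleomycin 3 or Bleomycin 4 was, and 0.0524 when Celastrol 2 was. For celastrol it was 0.154 or 0.241 when PBS 2 or PBS 3 was left out, 0.0637 when Bleomycin 4 was, and 0.0809, 0.0542 or 0.123 when Celastrol 2, 3 or 5 was.

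Dkk3, a secreted protein of bulge cells, was 674 and 562 in PBS 2 and PBS 3, 477, 263 and 244 in Bleomycin 2, 3 and 4, and 318, 273 and 149 in Celastrol 2, 3 and 5. Its changes of -0.97 and -1.38 against PBS did not pass (adjusted p = 0.648 and 0.173 by limma). No treated library reached a PBS library, as was so for 11.6% of all genes tested with bleomycin and 13.7% with celastrol. Lhx2 and Tcf7l1, transcription factors of follicle stem cells, had changes of -1.99 and -2.25 with celastrol against PBS, with adjusted p of 0.209 and 0.196. Krt15, a keratin of bulge and basal cells, was 14993 and 15907 in PBS 2 and PBS 3, 17663, 7526 and 9696 in Bleomycin 2, 3 and 4, and 10457, 7941 and 8372 in Celastrol 2, 3 and 5. Bleomycin 2 was above both PBS libraries for Krt15, and its changes of -0.50 and -0.80 did not pass (adjusted p = 0.989 and 0.298).

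Set against Krt15 in the same library, Krt75 was 4.07% and 3.95% in PBS 2 and PBS 3, 2.87%, 2.71% and 2.01% in Bleomycin 2, 3 and 4, and 3.61%, 4.21% and 2.87% in Celastrol 2, 3 and 5. The celastrol libraries overlapped the PBS libraries on this ratio and the bleomycin libraries did not. No test was run on it, and the part that a change in bulge or follicle content has in the Krt75 values was not tested.

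**Figure D4:**
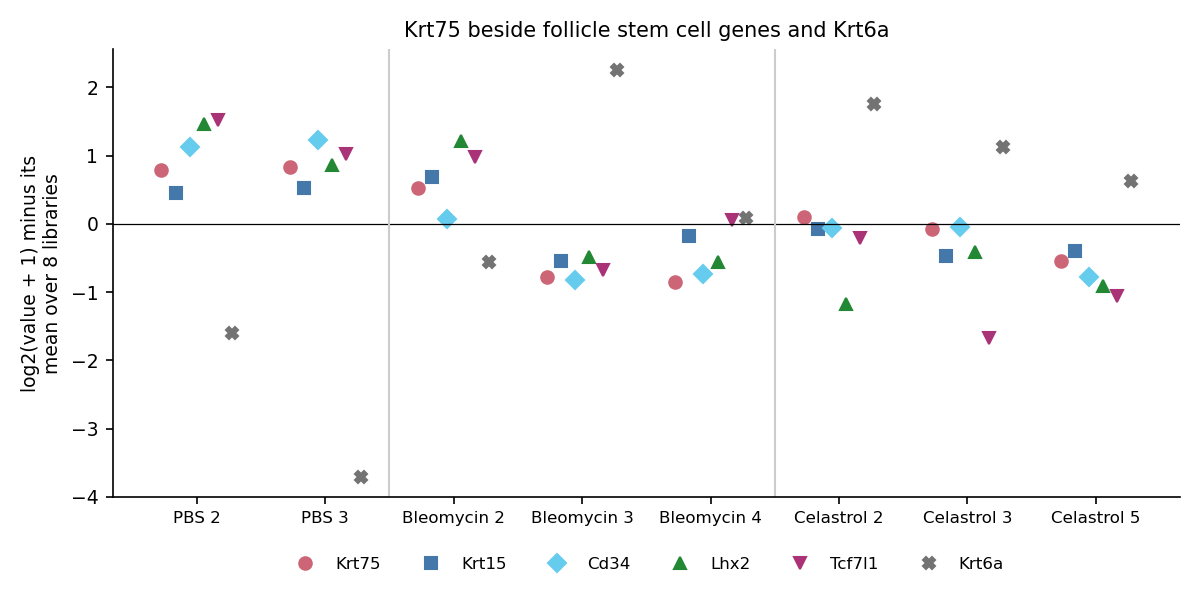
Log2 of value plus 1 in each library, minus the mean of the gene over the 8 libraries, for Krt75, the stem cell genes Krt15, Cd34, Lhx2 and Tcf7l1, and Krt6a. Krt75 and Cd34 are highest in both PBS libraries, with Bleomycin 2 the highest of the bleomycin libraries, and Krt6a is lowest in both PBS libraries.

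In the dermal papilla, the cluster of mesenchymal cells that signals to the matrix, 0 of 18 tested genes were called in any comparison by limma, with 1, 5 and 2 at an unadjusted p under 0.05 and medians of -0.42, -1.27 and -0.33. Corin, a protease of the papilla, did not exceed 27.4 in any library and was listed at 0 in Celastrol 2 and Celastrol 3. Of 20 genes of proliferating cells, 0 were called in any comparison (7, 10 and 0 at an unadjusted p under 0.05), with medians of 0.56, 0.69 and 0.03, and without Bleomycin 2 the count for bleomycin against PBS was 1. Mki67, a marker of cycling cells, had changes of 0.30 and 0.57 against PBS (adjusted p = 1 and 0.569). The direction of the medians was thus opposite for proliferation and for the matrix regulators in both comparisons with PBS.

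Pigment is delivered to the shaft by melanocytes in anagen. Of 13 tested pigment genes, 1 was called higher in each comparison with PBS and 0 in celastrol against bleomycin, with 4, 6 and 0 at an unadjusted p under 0.05 by limma. The medians were 0.42, 0.29 and -0.03. The list moved both ways against PBS, with 8 changes above 0 and 5 below with bleomycin, and 7 above and 6 below with celastrol. The called gene was Slc24a5, a cation exchanger of melanosomes, listed at 0 in both PBS libraries, at 33.7, 81.0 and 66.1 in Bleomycin 2, 3 and 4, and at 27.9, 87.7 and 107 in Celastrol 2, 3 and 5. All treated libraries were above both PBS libraries, as was so for 12% of all genes tested with bleomycin and 13.2% with celastrol. The gene passed the filter on low values only through the treated libraries, where it is high. As for Krt25, no p is therefore given for it, and its call is not taken as support for a rise.

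The Slc24a5 call for bleomycin was also lost without PBS 2, PBS 3, Bleomycin 3, Bleomycin 4 or Celastrol 5. That for celastrol was lost without PBS 2, PBS 3 or Celastrol 5. Tyrp1, an enzyme of melanin synthesis, was 41.0 and 46.3 in PBS 2 and PBS 3, 129, 107 and 197 in Bleomycin 2, 3 and 4, and 126, 234 and 350 in Celastrol 2, 3 and 5. Its changes of 1.66 and 2.30 did not pass (adjusted p = 0.345 and 0.0755 by limma). Every treated library was above PBS, as was so for 12% of all genes tested with bleomycin and 13.2% with celastrol. Without Celastrol 2 the celastrol change was 2.69 with an adjusted p of 0.0473. Dct, another enzyme of melanin synthesis, had changes of 0.42 and 0.75 against PBS (adjusted p = 1 and 0.410).

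Keratins of the epidermis were set beside the hair keratins. Of 12 tested, 0 were called for bleomycin against PBS and 0 for celastrol against bleomycin, and 2, Krt6a and Krt16, rose with celastrol against PBS (5, 0 and 5 at an unadjusted p under 0.05 by limma, in this order). The medians were 0.31 for bleomycin and 0.66 for celastrol against PBS, and 0.14 for celastrol against bleomycin. Krt6a, a type II keratin of stressed epidermis and of the companion layer, was 2723 and 633 in PBS 2 and PBS 3, 5593, 39537 and 8755 in Bleomycin 2, 3 and 4, and 27933, 18037 and 12754 in Celastrol 2, 3 and 5. Every treated library was above both PBS libraries, as was so for 12% of all genes tested with bleomycin and 13.2% with celastrol. Krt75, which shares the companion layer with Krt6a, was lower in every treated library than in PBS. Krt6b was 2323 in PBS 2 and 0.073 in PBS 3, where a read was worth 1.10 units, so that value is below 1 read. The Krt6b changes of 8.19 and 9.25 against PBS did not pass (adjusted p = 0.237 and 0.107 by limma). How far the Krt6a and Krt6b values share reads was not tested.

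Krt6a had a log2 change of 3.25 with bleomycin that did not pass (adjusted p = 0.108) and rose by 3.82 ± 0.77 (SE) with celastrol (adjusted p = 0.0417 by limma), both against PBS. Krt16, the partner keratin of Krt6a, had a change of 3.92 with bleomycin (adjusted p = 0.137) and rose by 4.94 ± 0.98 (SE) with celastrol (adjusted p = 0.0391). The celastrol calls of Krt6a and Krt16 were lost without PBS 3 (adjusted p = 0.297 and 0.259), Bleomycin 4 (0.0627 and 0.0602), Celastrol 2 (0.129 and 0.121), Celastrol 3 (0.0891 and 0.0772) or Celastrol 5 (0.115 and 0.126). For bleomycin, Krt6a passed without Bleomycin 2 (0.0373) and Krt16 without PBS 2 (0.0321). The count of epidermal keratins called higher with bleomycin rose to 2 when PBS 2 was left out and to 1 when Bleomycin 2 was, and the celastrol count was 1 without Celastrol 3. The keratins of undisturbed epidermis, Krt5, Krt14, Krt1 and Krt10, had changes from -0.48 to 1.32 against PBS, none of which passed.

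Marker genes of other tissues were summed in each library. Skeletal muscle genes made 0.372% to 0.501% of the library total in PBS, 0.472% to 0.853% with bleomycin and 0.833% to 1.09% with celastrol. Of 12 tested, 1 rose with bleomycin against PBS, 5 rose with celastrol against PBS and 0 passed for celastrol against bleomycin (3, 8 and 8 at an unadjusted p under 0.05 by limma), with medians of 0.38, 1.37 and 1.05. The bleomycin count was 0 without PBS 2, PBS 3, Bleomycin 2, Bleomycin 3, Bleomycin 4 or Celastrol 5, and the celastrol count was 1 or 0 when PBS 2 or PBS 3 was left out, 3 when Bleomycin 4 was, and 3 or 0 when Celastrol 2 or Celastrol 5 was.

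Adipocyte genes made 0.189% to 0.226% in PBS, 0.140% to 0.371% with bleomycin and 0.133% to 0.471% with celastrol, with 0 of 10 called in any comparison by limma (0, 0 and 1 at an unadjusted p under 0.05) and medians of 0.27, 0.12 and -0.31. Epidermal keratins made 0.604% to 2.02%, 0.752% to 2.01% and 1.06% to 1.59% in the same order. The part of these differences in the Krt75 and Cd34 values was not tested.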

How the data were processed

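Bulk RNA was measured in 8 skin libraries, grouped by their treatment label. The authors deposited a normalized signal per gene, estimated counts divided by a DESeq2 size factor per library (poscounts form), per the file headers. Per the submitters' processing notes, STAR 2.7.3a, Partek 10.0.22 and the mm10 build were used. The counter, its annotation and its use of strand are not given in the sources used here. Of the nonzero values, leaving out the highest, 58.9% to 67.5% per library were whole reads to within 0.03. This was too few to recover raw counts, so no count model was used. Library sums lay between 22917554 and 26381997 units. A floor of 3 reads was worth 2.07 to 5.06 units.

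Genes with at least 10 units in at least 2 libraries (23185) were tested with limma 3.58.1 in R 4.3.3 (lmFit, eBayes with a trend) on log2 of the value plus a pseudocount of 1, in a single fit of 8 libraries without covariates. Changes are on that scale, which understates those of low genes. Two-sided p-values were adjusted by Benjamini-Hochberg over these genes, and an adjusted p under 0.05 was called. The procedure was tested on simulated data. Reads per value come from the value of a read in each library.

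The members and the lists for hair matrix regulators, shaft and sheath genes, bulge and germ, dermal papilla, proliferation, pigment, epidermal keratins, skeletal muscle and adipocytes were chosen with earlier results of these data known. Genes named are all keratin members, the keratin-associated protein and a fixed set of follicle and epidermal genes. Some genes of the smallest p are also named from the shaft and sheath, bulge, pigment and epidermal keratin lists. Those of the smallest p are not named for the matrix regulator, dermal papilla, proliferation, skeletal muscle and adipocyte lists. Krt6b was added beside Krt6a. Alternatives changed the pseudocount, filter, normalization, library weights, the samples in the fit, the replicate block and the libraries left out.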

Additional observations from a re-analysis of the deposited data

How the results depend on the processing

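Over all alternatives tried, the count of members called stayed at 0 in each comparison and direction except with library weights, where 1 member, Krt75, passed as lower for bleomycin against PBS. The median change of the members for celastrol against PBS was -0.74 with a filter of 50, which left 2 members, against -0.03, and it lay between -0.53 and 0.42 when a library was left out. For bleomycin against PBS the median was -0.32, between -0.88 and 0 when a library was left out and -0.10 with no filter. In both comparisons 5 or 6 members passed the filter when a library was left out, and not always the same ones. Leaving out Krt25, an alternative chosen after seeing the data, gave medians of -0.44, -0.49 and -0.04 for bleomycin against PBS, celastrol against PBS and celastrol against bleomycin. Over all alternatives the Krt75 change lay between -1.63 and -0.94 for bleomycin and between -1.12 and -0.80 for celastrol against PBS. For celastrol against bleomycin its sign depended on the libraries, with changes of -0.045 to 0.64 when a library was left out. The same held for Krtap3-2 (-0.29 to 0.15) and Krt84 (-2.31 to 0.37) in that comparison, for Krt32 against PBS (-1.05 to 0.65 with bleomycin, -0.43 to 1.28 with celastrol) and for Krt84 with celastrol against PBS (-0.51 to 3.32). Against PBS, Krtap3-2 lay between -0.88 and -0.0056 with bleomycin and between -0.92 and -0.050 with celastrol when a library was left out. It also turned to 0.090 with the replicate block, and Krt28 to 0.45 with quantile normalization, both for celastrol against bleomycin. The cause was not tested. Labels share replicate numbers, and 6 same-numbered pairs had correlations of deviations from -0.005 to 0.203. Deviations from the mean of 2 or 3 libraries are tied to each other within a group. These correlations therefore cannot decide whether same-numbered libraries share more than a number. In the block fit Bleomycin 4 and Celastrol 5 do not inform the changes between groups, since no other library has their number. Results with the block therefore rest on fewer libraries. The replicate block called 0 members and gave Krt75 changes of -0.94 (adjusted p = 0.855) and -0.80 (0.437) against PBS by limma. These are the changes found without Bleomycin 4 and without Celastrol 5. The block lowered the calls over all genes from 157 to 17 and from 317 to 41. Over all alternatives those calls ranged from 16 to 711 and from 38 to 418. With the block, the calls against PBS of Cd34 (adjusted p = 0.144 and 0.160), Krt6a (0.199), Krt16 (0.216) and Slc24a5 were lost. With only the groups compared in the fit, Cd34 was lost for bleomycin (0.0781) and Slc24a5 for both treatments. Slc24a5 was also lost for bleomycin with a pseudocount of 10 or a filter of 50. Library weights added calls for bleomycin of Krt6a (0.0249), Krt16 (0.0353) and Tyrp1 (0.0265), and for celastrol of Tyrp1 (0.0396). With them 1 shaft and sheath gene, 1 dermal papilla gene and 1 proliferation gene also passed for bleomycin. The muscle count was 0 in both comparisons with PBS under the block, and 0 for bleomycin with a pseudocount of 0.5, library totals, quantile normalization or only the groups compared. Where PBS was left with 1 library, it was assumed to vary like the other groups. Depth limits the 6 low members, whose values rest on at most 69 reads.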

Other observations

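Krt2, a keratin of the upper epidermis, separated libraries within groups. Its value was 1698 in PBS 2 and 13.2 in PBS 3, 13.1, 1069 and 43.4 in Bleomycin 2, 3 and 4, and 36.1, 28.7 and 55.5 in Celastrol 2, 3 and 5. The PBS and bleomycin groups each held 1 library far above the rest, and the changes against PBS did not pass (adjusted p = 1 for bleomycin and 0.754 for celastrol by limma). The gene was singled out after its values were seen.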
